A study of Mus musculus with 17 samples.

Results

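Cytosolic ribosomal protein genes encode the protein part of the ribosomes that translate messenger RNA in the cytoplasm. Members were the protein-coding rows of the deposited table whose name starts with Rpl or Rps and a digit, or is Rplp0, Rplp1, Rplp2 or Rpsa, without the S6 kinase genes. The rule found 106 of the 43346 genes listed. They comprised 77 core genes, of which 46 encode large-subunit and 31 small-subunit proteins, 9 paralogs of core genes, 19 rows whose name ends in -ps and a number, and Rps19bp1, which encodes a protein that binds Rps19 and is no ribosome subunit. Although the table lists all of them as protein-coding, GENCODE M21 types 15 as pseudogenes, namely 14 of the -ps rows and the paralog Rps4l.

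Bulk RNA of mouse bile duct was sequenced in work on extrahepatic cholangiocarcinoma, a tumour of bile ducts beyond the liver. All 17 samples carried the tissue label bile duct, and the labels gave no genotype, strain, treatment, time or age that would set samples apart. The count columns begin with 6 codes, 5 shared by 3 libraries each and R63494 shared by 2. The meaning of a code is not stated in these sources, no column name matched a sample title, and differences between codes are therefore differences between sets of columns, not between conditions. Nothing said that libraries came from separate animals, so a p-value measures only the spread between these libraries, which may be technical.

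Libraries held between 16400556 and 24152314 counts (median 17886041). All 10 cholangiocyte markers had counts, with a summed level of 6403 to 9160 CPM, which are counts scaled to a common library size. The 3 libraries of R62850 stood apart: 12 pancreatic acinar markers, genes of digestive enzymes made by the exocrine pancreas, summed to 6191 to 140400 CPM there and to 40.7 to 158 CPM in the other 14 libraries, with none of the 12 at 0 in all libraries. The other 12 marker lists, which covered fibroblasts, immune cells, endothelium, smooth muscle, hepatocytes, erythroid cells, proliferation and heat shock among others, overlapped between R62850 and the rest.

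Each ribosome holds 1 copy of nearly every core protein, and cells make these proteins in matched amounts. The messenger RNAs of ribosomal proteins typically begin with a run of C and T bases, the terminal oligopyrimidine tract, through which the mTOR kinase and the RNA-binding protein LARP1 control their translation. In growing tissue these genes are among the most highly expressed.

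RefSeq (GRCm38.p6) gave a start window for 57 of the 77 core genes. Runs of at least 8 bases that are each C or T were sought on the gene's own strand, from 20 bases before to 20 bases after the start, with no more than 5 bases between the run and the start base. Such a run was present for 23 of 57 core genes (40.4%) and for 3216 of 27025 genes with a window of the same length (11.9%). No other motif was searched, and a match describes letters, not a site in use. Windows are shown in 5′ to 3′ order with the run in capitals, for Rps27 and Rps26, which were among the 6 members of highest level, for Rps24 and Rps6, small-subunit proteins of which the latter is the substrate of the S6 kinases, and for Rpl35a, one of the most variable members.
Rps27: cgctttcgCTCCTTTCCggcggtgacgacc
Rps26: ccgccggaTCCTCTTTCgagtcttggctcc
Rps24: cgctggggTCCTTCCTTgcgcgttgatatg
Rps6: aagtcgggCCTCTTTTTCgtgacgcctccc
Rpl35a: ggggcttgCCTTCCTCTTTCCgccatcttg
The windows lie at chr3:90213629-90213658 (minus strand), chr10:128626482-128626511 (minus), chr14:24490667-24490696 (plus), chr4:86857347-86857376 (minus) and chr16:33056469-33056498 (plus). In these 5 windows the run is 9 to 13 bases long.

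All 77 core genes were abundant, and most stayed within 2-fold between libraries. Every core gene had a median of at least 100 CPM, from 105 CPM for Rpl35a, a large-subunit protein mutated in some inherited anaemias, to 951 CPM for Rplp0, the base of the ribosomal stalk. In 66 of 77 core genes the highest library was within 2-fold of the lowest. The median SD of log2 CPM over libraries was 0.23 for the 91 members that passed the filter on low counts, against 0.27 over the 15795 genes tested. For 2053 other genes with a median of at least 100 CPM it was 0.19, so members were not steadier than other abundant genes.

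Per kilobase of gene, Rplp1, an acidic protein of the stalk that recruits elongation factors, ranked first with a median of 1667 RPKM (range 1223 to 2095). Rps27, a zinc-finger protein of the small subunit, came next with 1502 RPKM (1211 to 2135), and the ranges of these 2 genes overlapped. Rps12 followed at 847.5 RPKM, Rps26, which contacts messenger RNA near its exit, at 803.5 RPKM, Rpl4 at 637 RPKM and Rpl32 at 625 RPKM. The core genes spanned median levels of 29.97 RPKM (Rpl35a) to 1667 RPKM, with a median of 232 RPKM. Their order depended on the length used, because the table's gene lengths ran to 6262 bases while coding lengths did not exceed 1257 bases. On the length of a single GENCODE M21 transcript, Rplp1 and Rps27 remained first and second, Rps12 ranked 5, Rpl32 17, Rpl4 23 and Rps26 26 among the 106 members, and Rpl35a had a median of 215 RPKM.

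**Figure D1:**
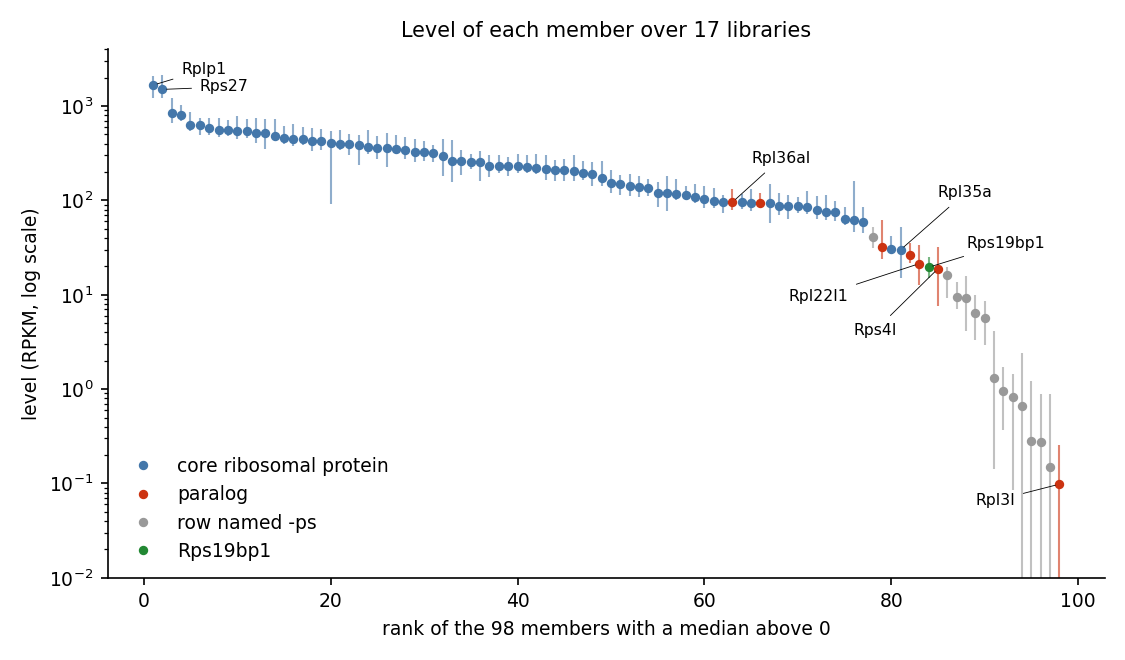
Level of each of the 98 members with a median above 0, ranked by median RPKM over 17 libraries (log axis); points are medians and lines run from the lowest to the highest library, lines that reach the lower edge including 0. Core genes lie between 29.97 and 1667 RPKM, and most rows named -ps lie below them.

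The 106 members took 2.41% (R62848_3) to 3.74% (R62850_1) of a library's counts, with a median of 2.83% over 17 libraries (SD 0.385 percentage points). The 95% Wilson intervals of these extremes were 2.40 to 2.42% and 3.73 to 3.75%; intervals cover counting error only, since reads that carry no molecular identifier are not separate molecules. In R62850 the shares were 3.74%, 3.58% and 2.83%, and in the other 14 libraries they ran from 2.41% to 3.28%. The library R62850_3 thus lay inside the range of the others and the other 2 libraries of its code above it. Acinar markers took 0.607%, 2.44% and 11.7% of counts in these 3 libraries, and with acinar genes left out of the total the member shares became 3.765%, 3.67% and 3.21%. In the 14 other libraries acinar markers took 0.00406% to 0.0151%. In bulk tissue, fewer cells of a type and less RNA per cell cannot be told apart.

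**Figure D2:**
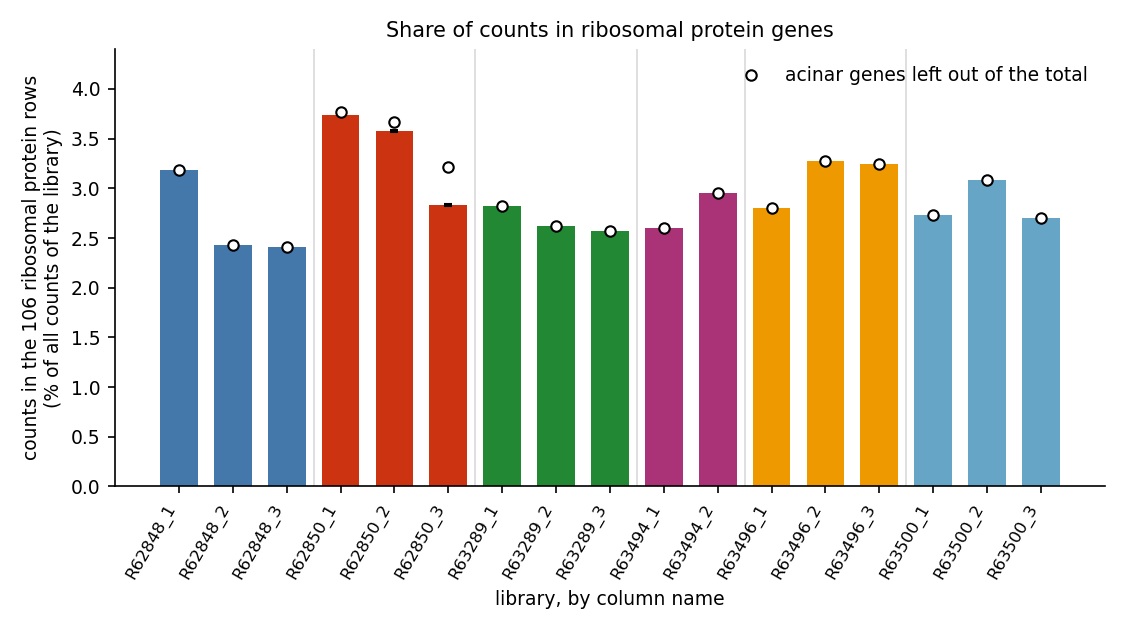
Percent of all counts in the 106 ribosomal protein rows in each library, coloured by column code, with 95% Wilson intervals (too narrow to see in most bars) and, as open circles, the percent with acinar genes left out of the total. R62850_1 and R62850_2 are highest at 3.74% and 3.58%, and R62848_2 and R62848_3 lowest at 2.42% and 2.41%.

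The proportion of large- to small-subunit counts varied little. The ratio of large-subunit to small-subunit counts was 1.43 (R63494_1) to 1.53 (R62848_2), a 1.07-fold range with a median of 1.47, while the total share varied 1.55-fold. The median log2 deviation from each gene's own median was 0.36, 0.31 and 0.22 for large-subunit and 0.39, 0.32 and 0.18 for small-subunit genes in the 3 R62850 libraries.

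Within the code R62848 the libraries divided. In R62848_1, 70 of 91 tested members stood above their own median over libraries, with a median log2 deviation of 0.15. In R62848_2 and R62848_3 only 2 and 4 members did, with median deviations of -0.25 and -0.26, the lowest of all libraries. The R62850 libraries had 88, 85 and 85 members above their median and deviations of 0.37, 0.30 and 0.20. In R63289 the deviations were -0.04, -0.16 and -0.18, and in R63496 they were -0.05, 0.16 and 0.16. By comparison, the deviation over all genes tested was 0.00 in each library.

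**Figure D3:**
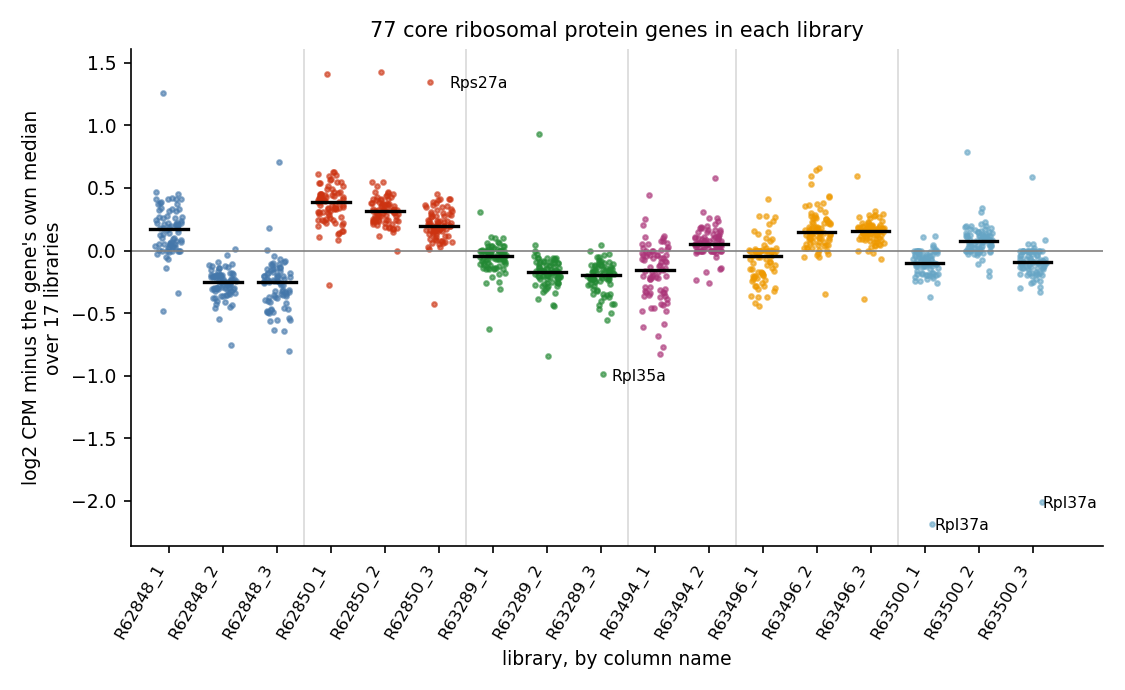
Log2 CPM of the 77 core genes minus each gene's own median over 17 libraries, 1 point per gene and library, with black bars for the median of the 77 genes, coloured by column code. The genes of a library lie mostly on 1 side of 0, highest in R62850, and Rpl37a lies far below the rest in R63500_1 and R63500_3.

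Over the 6 codes, 52 of 91 tested members differed by edgeR's quasi-likelihood F test with Benjamini-Hochberg adjustment over all genes, next to 48.7% of all genes tested. The count rested on few libraries: it was 26 without R62850_1 and 81 without R62848_1. Without the 3 libraries of R62850, 7 of 91 members differed between the remaining codes, where 40.9% of all genes tested did. These 7 were the core genes Rpl29, Rps2, Rpl35a and Rps9, the paralog Rps4l, and Rpl7a-ps5 and Rpl10-ps3 among the -ps rows.

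Most calls with a direction were in R62850. Against the mean of the other 5 codes, 63 of 91 members were higher in R62850 (background 11.7% of all genes tested). Of the 91, 0 were lower (background 12.8%). No member was lower at an unadjusted p under 0.05 (0 of 91) or with limma (0 of 91). The 63 comprised 60 of 77 core genes, 36 of 46 in the large and 24 of 31 in the small subunit, and 3 paralogs. Differences of the 60 core genes were modest, from 0.24 to 1.23 on the log2 scale with a median of 0.36. The value of 1.23 is that of Rps27a on its own row, and became 0.465 with its near-identical copies added. The median over the 91 tested members was 0.34, against 0.00 over all genes tested. Without R62850_1 the count fell to 29. Acinar markers were higher in the same libraries (values above). The member share was highest in R62850_1, the library of that code with the fewest acinar counts. Acinar counts belong to the total from which the share is taken. The differences were instead scaled on the counts of genes tested. These were 17920107, 17986198 and 15029310 of 18100433, 18569358 and 17472699 counts in R62850_1, R62850_2 and R62850_3. The part of acinar counts in either was not tested.

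In 31 of 91 members all 3 libraries of R62850 lay above all 14 others, which held for 2.41% of all genes tested. These levels are CPM on the counts of genes tested. The separation was not examined on all counts, where the member share of R62850_3 lay inside the range of the others. Rps27a was among the 31 on its own row only. Summed with its near-identical copies it was at 337.7 CPM in R62850_3 and 343.5 CPM in R62848_1. Such separation was seen in R62848 for 2 members, both below and 1 of them, Rps2, on its own row only (1.86% of all genes tested). It was seen in R63289 for 1 below (0.481%), in R63494 for 1 above (4.43%) and in R63496 for 1 above (0.823%). Rpl3, a protein of the peptidyl transferase region, stood at 827, 713 and 723 CPM in R62850 and at 444 to 577 CPM elsewhere, with no overlap. Its log2 difference was 0.54 (SE 0.07, edgeR quasi-likelihood adjusted p = 3.36e-05). Rpl21, of the large subunit, was at 625, 581 and 538 CPM in R62850 and 262 to 461 CPM elsewhere (edgeR quasi-likelihood log2 difference 0.615, SE 0.136, adjusted p = 0.00465). Rps24 was at 671, 636 and 631 CPM against 368 to 556 CPM (0.525, SE 0.085, adjusted p = 0.000283). Rpsa, a small-subunit protein also described as a laminin receptor, was at 1222, 1112 and 1074 CPM against 705 to 944 CPM. These 4 genes were chosen after their values were seen.

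Among the 6 members of highest level, 5 also had groups that did not overlap in CPM on the counts of genes tested. Rps27 stood at 555, 474 and 474 CPM in R62850 and 304 to 452 CPM elsewhere, with a log2 difference of 0.43 (SE 0.10, edgeR quasi-likelihood adjusted p = 0.00408). Rps12 stood at 591, 539 and 518 CPM against 313 to 468 CPM (log2 difference 0.45, SE 0.08, edgeR quasi-likelihood adjusted p = 0.000881). Rplp1 was at 1058, 992 and 989 CPM against 608 to 961 CPM, Rpl4 at 1241, 1096 and 1085 CPM against 762 to 975.5 CPM, and Rpl32 likewise lay wholly above.

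The 17 core genes that did not pass included Rpl29. Its log2 difference, on its own row, was -0.18 (SE 0.12, edgeR quasi-likelihood adjusted p = 0.277), the only negative one in the core set. Rpl15 (0.17), Rpl34 (0.20) and Rps29 (0.29) also did not pass. Rpl12, Rpl15, Rpl34, Rps26 and Rpl7l1 had the smallest SDs over libraries among the members tested, between 0.149 and 0.161 on the log2 scale. Of these, Rpl12 and Rps26 were higher in R62850. Rpl12, a protein at the base of the stalk, was at 396, 368 and 378 CPM against 273 to 362 CPM (edgeR quasi-likelihood log2 difference 0.28, SE 0.07, adjusted p = 0.0056), and the difference of Rps26 was 0.26 (SE 0.07, adjusted p = 0.0145).

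**Figure D4:**
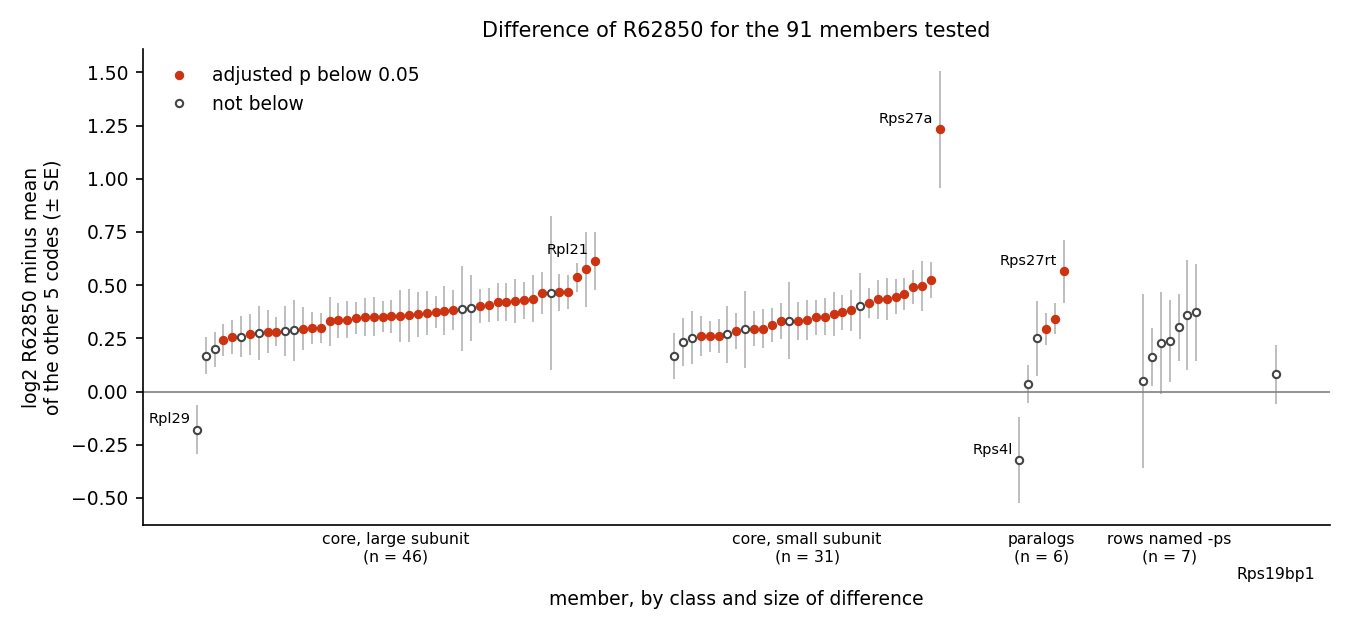
Log2 difference of R62850 from the mean of the other 5 codes for each of the 91 members tested, with SE, grouped by class; filled points have an adjusted p below 0.05 by edgeR's quasi-likelihood test. Of 77 core genes 76 lie above 0, and Rps27a is highest at 1.23, on its own row, or 0.465 with copies added.

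The other codes gave few calls. In R62848, 8 members were lower (background 10.6%) and 0 higher (background 15.2%; 0 at an unadjusted p under 0.05, 0 with limma). The 8 were Rps2, Rpl29, Rpl3, Rpl26, Rpl22, Rpl36al, Rps4l and Rpl10-ps3, and the count became 48 without R62848_1, 3 without either of the other 2 libraries of that code, 13 without R63496_1 and 5 without R63289_1 or R63496_2. In R63289, Rpl35a and Rplp0 were lower, 2 members (background 2.17%), and 0 were higher (background 2.44%; 0 unadjusted, 0 with limma); without any 1 of its libraries none was lower, and 4 were without R63496_1. In R63496, Rpl29, Rps2, Rps9 and Rpl7a-ps5 were higher, 4 members (background 4.98%), and 0 lower (background 6.52%; 0 unadjusted, 0 with limma); the 4 became 18 without R62848_1 and 0 without R63496_2. With copies added, Rps2 did not pass in R63496 (edgeR quasi-likelihood adjusted p = 0.064). In R63494, Rpl29 and Rps4l were higher, 2 members (background 9.3%), and 0 lower (background 10.6%; 3 unadjusted, 0 with limma); 1 was higher without R63494_2. In R63500, 1 member, Rpl35a, was higher (background 13.2%), and 3 members, Rpl29, Rpl3 and Rpl10, were lower (background 8.93%); none was higher without R63500_2 or R63500_3, and none was lower without R63500_1 or R63500_3.

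A few core genes departed from the family. Rpl29, a large-subunit protein also described as heparin-binding, stood at 167, 160.1 and 159 CPM in R62848 and below every other library. It was at 319 and 351 CPM in R63494, 250, 339 and 355 CPM in R63496, and 182, 204 and 186 CPM in R63500. It differed between codes (edgeR quasi-likelihood F test, adjusted p = 0.000121), also without R62850 (1.23e-05). In R62850, where most core genes were high, Rpl29 was at 194, 274 and 174 CPM. These levels are those of its own row. Of the counts summed with its 22 near-identical copies, the row held from 80.6% in R62850_1 to 97.1% in R63496_2. With copies added Rpl29 also differed between codes (edgeR quasi-likelihood F test, adjusted p = 1.33e-05).

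Rpl35a took another course. It was at 68.2, 58.7 and 52.9 CPM in R63289, the last the lowest of all libraries, and at 104, 182 and 158 CPM in R63500. It stood at 137, 93.8 and 119 CPM in R62848, 151, 142 and 134 CPM in R62850, 59.3 and 111 CPM in R63494, and 105, 82.5 and 80.3 CPM in R63496. The edgeR quasi-likelihood adjusted p between codes was 0.00392. The libraries of a code differed among themselves, by a within-code SD of 0.31 on the log2 scale against a median of 0.17 over the core genes. Of its 14 near-identical copies, the most counted, Rpl35a-ps2, did not exceed 3.23 CPM, and at least 92.2% of the summed counts lay on the Rpl35a row in each library.

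For several genes, counts were divided between the member and near-identical copies. A copy was defined as a transcript of another gene at least 95% identical over at least 80% of the coding sequence. By this definition 407 copies were found for 76 members, 67 of them core genes. Genes that overlap the member's own position were not left out. Some copies are protein-coding genes with names of their own, such as Flt3l for Rpl13a and Wdr89 for Rplp2. How reads that match several places were counted is not stated in these sources, so counts on a copy's row may come from RNA of the member or of the copy, which was not tested. Of these copies, 26 had no count and 263 did not reach 1 CPM in any library. In 38 core genes the member's own row held over 90% of the summed counts in each library. Rpl26 and Rpl27a held medians of 59.3% and 65.8%, with ranges of 6.52 and 11.4 percentage points. Rpl24 held a median of 48.5% (48.15 to 48.94%), with 170.5 to 269.5 CPM on Gm28037, a copy of identical coding sequence typed as a processed transcript. In 4 core genes, Rpl37a, Rps27a, Rps2 and Rpl38, chosen after their values were seen, this share varied over more than 20 percentage points.

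Rpl37a on chromosome 1 encodes a zinc-binding large-subunit protein. Its copy Gm4149, at chr13:75644864-75645226 on mm10, differs over the 276 coding bases by T198C alone (the member's base first, positions counted from 1 at the first base of the coding sequence). The 30 bases around it are shown from GENCODE M21, in 5′ to 3′ order with the differing base in capitals, because a read inside the coding sequence that misses this base reads the same from both rows.
Rpl37a: gaaaacagtggccggTggggcctggaccta
Gm4149: gaaaacagtggccggCggggcctggaccta
In R63500 the Rpl37a row held 54.0, 254 and 61.0 CPM and Gm4149 176, 40.5 and 192 CPM. In the 14 libraries of other codes Rpl37a held 168 to 317 CPM and Gm4149 24.7 to 53.0 CPM. Thus 23.3% and 24.0% of the summed counts lay on the Rpl37a row in R63500_1 and R63500_3, against 83.0 to 87.2% in the other 15 libraries. The sum of the member and its 4 copies ran from 193 to 368 CPM, a 1.91-fold range, where the Rpl37a row alone ranged 5.87-fold. The SD on the log2 scale was 0.74 for the row, the second largest after Rpl7a-ps5 among the members tested, and 0.28 for the sum. Rpl37a was not called between codes (edgeR quasi-likelihood adjusted p = 0.325), and was without R63500_2 (4.28e-05).

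Rps27a on chromosome 11 encodes ubiquitin fused to a small-subunit protein. Its most counted copy, Rps27a-ps2 at chr9:83409660-83410126, differs from it by A375G over the aligned coding bases, on the same counting of positions.
Rps27a: gtgtccttctgatgaAtgtggtgctggagt
Rps27a-ps2: gtgtccttctgatgaGtgtggtgctggagt
The Rps27a row held 320.5, 325 and 307 CPM in R62850 and 89.8 to 289 CPM elsewhere, the highest of these in R62848_1. The copy held 53.7, 21.6 and 20.9 CPM in R62850 and 35.5 to 143 CPM elsewhere. The row's share of the summed counts fell into 2 ranges, 82.8 to 91.8% in R62850, R62848_1, R62848_3 and R63289_2, and 38.1 to 56.4% in the other 11 libraries. On its own row Rps27a had the largest difference of R62850 among the core genes, 1.23 (SE 0.28, edgeR quasi-likelihood adjusted p = 0.00791). With the counts of its 5 copies added the difference was 0.465 (SE 0.117, adjusted p = 0.00887), and the range over libraries went from 3.61-fold to 1.91-fold.

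Rps2, a small-subunit protein near the channel where messenger RNA enters, shared its counts with Rps2-ps10, a copy 98.0% identical. The copy held 199.5, 106 and 111 CPM in R62848 and 4.84 to 25.8 CPM in the other 14 libraries. The Rps2 row held 602, 450.3 and 437 CPM in R62848, below every other library (638 to 887 CPM). The sum with copies was 802.8, 557.9 and 550.6 CPM in R62848 and 645.9 to 905.4 CPM elsewhere, so that R62848_1 lay inside the range of the others. Its log2 difference in R62848 was -0.64 (SE 0.09, edgeR quasi-likelihood adjusted p = 1.79e-05), and -0.30 (SE 0.09, adjusted p = 0.0227) with copies added. Rps2 passed between codes in both cases (edgeR quasi-likelihood adjusted p = 5.17e-05 and 0.00808). On its own row it was also higher in R63496 (0.313, edgeR quasi-likelihood adjusted p = 0.0171) and in R62850 (0.296, adjusted p = 0.0123). With copies added neither passed, at 0.259 (SE 0.089, adjusted p = 0.064) and 0.223 (SE 0.089, adjusted p = 0.0741). For Rpl38, a small large-subunit protein, the row's share ran from 68.6% to 90.03%, and adding its 3 copies left the range at 2.04-fold.

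**Figure D5:**
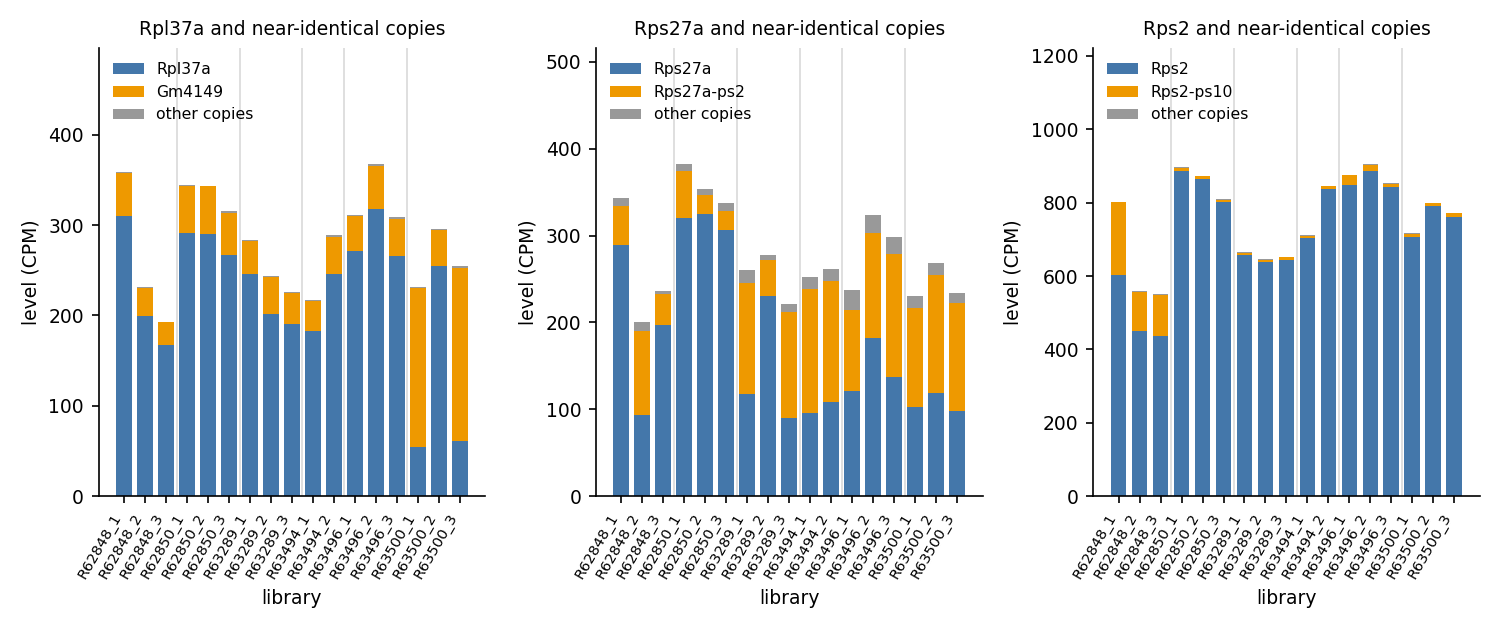
Level (CPM) of Rpl37a, Rps27a and Rps2 (blue), of the most counted near-identical copy of each (orange) and of their other copies (grey), stacked per library. Gm4149 takes most of the Rpl37a sum in R63500_1 and R63500_3, and Rps2-ps10 is visible mainly in R62848.

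The 9 paralogs covered a wide range of levels. Their percentages of a parent, here and for Rps4l below, rest on the table's gene lengths and change with the length used. Rpl36al stood at 109.6% of the RPKM of its parent Rpl36a (86.9 to 132%). On the length of a single GENCODE M21 transcript, Rpl36al had a median of 246.6 RPKM, below the 295.2 RPKM of Rpl36a. The other percentages were not recomputed on that length. Rpl36al was higher in R62850 at 184, 162 and 151 CPM against 108 to 154 CPM. Its log2 difference was 0.34 (SE 0.07, edgeR quasi-likelihood adjusted p = 0.0028). Rpl22l1, an alternative to Rpl22 in the large subunit, was at 28.3% of Rpl22, from 16.6% in R63494_1 to 37.6% in R63496_2. Its level ran from 25.9 to 66.7 CPM with a median of 50.9 CPM, and its differences between codes did not pass (edgeR quasi-likelihood F test, adjusted p = 0.0734; 0.00367 with DESeq2 and 0.0435 with limma). Rpl7l1 was at 11.6% of Rpl7, and was one of the steadiest members (60.6 to 91.9 CPM). Rps27l, a target of p53, was at 6.49% of Rps27 and Rps27rt at 2.35%. Both were higher in R62850, by 0.29 (SE 0.08) and 0.57 (SE 0.15) on the log2 scale (edgeR quasi-likelihood adjusted p = 0.00902 and 0.00931).

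Rps4l was at 5.29% of Rps4x, the X-linked small-subunit gene, and varied from 7.26 CPM in R62848_1 to 30.9 CPM in R63494_1. Both libraries of R63494, at 30.9 and 29.1 CPM, lay above the other 15 libraries, and the R62848 libraries were at 7.26, 9.33 and 11.2 CPM. It differed between codes (edgeR quasi-likelihood F test, adjusted p = 0.00116; 0.000551 without R62850). Rps4x varied 1.63-fold (504 to 821 CPM).

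The other 3 paralogs were near or at the limit of detection. Rpl10l, known from testis, had no count in any of the 17 libraries, where a count of 0 allows up to 0.124 to 0.183 CPM of all counts, by library. Rpl39l, also known from testis, had no count in 11 libraries and its highest level, 1.65 CPM, in R62848_3. Rpl3l, known from striated muscle, had no count in 5 libraries and at most 8 counts (0.421 CPM).

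The 19 rows named -ps had a median level of 0.282 CPM, and 7 of them were tested. Rps26-ps1 was highest at 17.2 CPM, followed by Rpl9-ps6 at 11.02 CPM, Rpl10-ps3 at 6.94 CPM, Rps12-ps3 at 4.62 CPM, Rpl23a-ps3 at 3.25 CPM, Rps10-ps1 at 3.09 CPM and Rpl7a-ps5 at 1.09 CPM. Rpl10-ps3 differed between codes (edgeR quasi-likelihood adjusted p = 0.0218), from 3.09 CPM in R62848_2 to 11.5 CPM in R63496_2. Rpl7a-ps5 also did (adjusted p = 0.042, 0.114 with limma), at 2.82, 3.11 and 3.29 CPM in R63496 above all other libraries (0.137 to 2.29 CPM), on 2 to 59 counts a library. The other 5 tested -ps rows did not pass. Rpl21-ps4, Rpl36-ps4 and Rpl7a-ps8 had no count in any library, and the 9 others that were not tested, Rpl9-ps1, Rpl13-ps3, Rpl13a-ps1, Rpl27-ps3, Rpl28-ps4, Rpl36-ps3, Rpl7a-ps3, Rps18-ps3 and Rps2-ps6, did not exceed 1.07 CPM. Rps19bp1 was at 12.4 to 20.5 CPM and was not called between codes (edgeR quasi-likelihood adjusted p = 0.735).

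Genes that work beside the ribosomal proteins were set next to them, for R62850, where 11.7% of all genes tested were higher and 12.8% lower. Outside the naming rule, Fau, a ubiquitin-like protein fused to a small-subunit protein, was higher in R62850 (log2 difference 0.33, SE 0.10, edgeR quasi-likelihood adjusted p = 0.018), as was Rack1, a scaffold on the small subunit. Of 7 genes listed for elongation 3 were higher and 0 lower, among them Eef1b2 (0.35) and Tpt1 (0.32), which is itself no elongation factor. Eef1a1, which delivers transfer RNAs, was at 4785 to 6548 CPM and did not pass (edgeR quasi-likelihood adjusted p = 0.0582). Of 29 initiation genes 8 were higher (27.6%) and 4 lower, with Eif3k at 0.44 and Eif2s3x at -0.72. Of 77 mitochondrial ribosomal protein genes, which serve the separate ribosomes of mitochondria, 16 were higher (20.8%) and 0 lower, with a median difference of 0.155 on the log2 scale against 0.34 for the 91 members.

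Ribosome biogenesis genes make and fold the ribosome's parts in the nucleolus. In R62850, 5 of 35 were higher (14.3%, background 11.7%) and 1, Utp20, was lower (log2 difference -0.53), with a list median of -0.04. In R63500, 18 of 35 were higher (background 13.2%) with a median of 0.28, while the 91 ribosomal protein members had a median of -0.045 there. The library R63500_2 stood apart: the list's median log2 deviation was 0.10, 0.50 and 0.14 in the 3 libraries of that code, with 26, 33 and 26 of 35 genes above their own median. Of 8 snoRNA host genes, whose transcripts also begin with pyrimidine tracts, 0 were higher in R62850 and 3 in R63500, with median deviations of 0.18, 0.50 and 0.22 in the R63500 libraries. Of 13 genes of mTOR and LARP1 control 1 was higher in R62850, Eif4ebp3 (0.62), and 1 lower. Larp1 itself did not pass (-0.18, edgeR quasi-likelihood adjusted p = 0.172). Differences between these lists and the members were not tested.

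Other abundant genes and other short genes were set beside the members. Among 2053 other genes with a median of at least 100 CPM, 313 were higher in R62850 (15.2%) and 449 lower, with a median difference of -0.04. Among 502 other protein-coding genes under 1000 bases long, 117 were higher (23.3%) and 20 lower, with a median of 0.17. By the same measure the core genes had a median length of 1535 bases, so this set was not matched to them in length. Both shares were below the 69.2% of the 91 members, and neither difference was tested. Across libraries the short genes deviated in the same direction as the members in R62848_2 and R62848_3 (-0.19 and -0.19) and in R63496_2 and R63496_3 (0.16 and 0.16). The same held in R62850_1 and R62850_2, at 0.19 and 0.10 against 0.37 and 0.30 for the members. In R63500_1 and R63500_3 the short genes were at -0.09 and -0.09, against -0.10 and -0.10 for the members. They did not follow the members in R63500_2, at -0.04 against 0.08, and deviated less in R62848_1 (0.01 against 0.15) and in R62850_3 (0.03 against 0.20). The part of transcript length in these deviations was not tested.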

How the data were processed

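The deposited table gave raw read counts for each gene in 17 libraries of bile duct RNA. Per the submitters' processing notes, STAR 2.6.1c, featureCounts and edgeR 3.40.2 were used with build mm10. Strand setting and the treatment of reads that match several places are not stated there. A further 17 columns of per-sample values were not used.

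Genes were kept with filterByExpr of edgeR 4.0.16 (R 4.3.3) and an intercept-only design, and log2 CPM were taken after TMM scaling (prior count 2). CPM and tests used the counts of the genes kept as library size. The filter ignored the codes, so genes counted almost only in R62850 could drop out, also from the backgrounds. RPKM were computed from counts, library totals and the table's gene lengths. The main tests were edgeR's quasi-likelihood F test over 6 column codes and 6 contrasts of 1 code with the mean of the other 5, Benjamini-Hochberg adjusted over 15795 genes, at 0.05. DESeq2 1.42.0 (likelihood ratio test) and limma 3.58.1 were alternatives. In counts simulated for R62850 over 15795 genes, the contrast recovered 34% of 100 genes changed 1.3-fold and 86% of 100 changed 2-fold, with 7 false calls. Copies were sought with BLAST 2.17.0 among GENCODE M21 transcripts.

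Members, gene lists and tests were chosen with earlier results of these data known. Named by rule were the 6 highest and 6 lowest tested members by RPKM, the 10 most and 5 least variable, and all paralogs, -ps rows and members not tested. In each further list the rule named the 2 of highest RPKM and the 2 most variable genes; only some of these are described. Members were matched by name and all 106 by identifier to GENCODE M21. 1 gene of the further lists is not reported here.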

Additional observations from a re-analysis of the deposited data

How the results depend on the processing

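No paired analysis was possible because the labels give 1 group and no replicate number ties libraries across codes. Of 139 alternative values for the main results, leaving out single libraries aside, 132 stayed within 1.5 times the main count or within the spread between libraries, and 7 did not. Members that differ between codes fell from 52 to 7 without the 3 libraries of R62850. Members lower in R63289 went from 2 to 1 with DESeq2 size factors, with totals of tested genes without TMM factors, and with copies added. Those lower in R63500 went from 3 to 1 with copies added. With totals of tested genes only, 1 member was lower in R63494, and with no filter on low counts 1 was higher in R62848. Totals of all counts were not tried as the only scaling. The cause was not tested.

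Leaving out 1 library at a time, members that differ between codes ranged from 26 to 81 and all such genes from 6719 to 7969. Members higher in R62850 ranged from 29 to 78 and lower from 0 to 1. The ranges were 3 to 48 for lower in R62848, 0 to 4 for lower in R63289, 1 to 2 for higher and 0 to 1 for lower in R63494, 0 to 18 for higher in R63496, and 0 to 2 for higher and 0 to 4 for lower in R63500. The 1 call lower in R62850 came without R62850_2, the 1 lower in R63494 without R62848_1 or R63494_2, and the 2 higher in R63500 without R63494_2. 1 member was lower in R63289 without each library of R62850, R63494_2, R63496_2, R63496_3, R63500_1 or R63500_3, and in R63500 without R63500_2. With 1 library of R63494 left, that library is assumed to vary like the other codes. Adding copies and lengths of single transcripts were alternatives chosen after seeing the data. Of the 106 members, 15 did not pass the filter on low counts and have no test.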
